A study of Mus musculus with 7 samples.

Results

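Csf3-high cells of the PyMT tumors were the 10% of cells with the most Csf3 UMIs per 10000 UMIs of the cell, taken separately in each of the 2 PyMT libraries. A UMI, or unique molecular identifier, marks 1 captured transcript. They numbered 195 of 1947 cells in replicate A and 185 of 1842 cells in replicate B, that is 380 of 3789 PyMT cells and of 12168 cells in the whole series. A cell was kept with at least 1000 UMIs, at least 500 detected genes and less than 20% of its UMIs from mitochondrial genes. The level of Csf3 chose these cells, so it is given here as a description and was not tested.

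Both PyMT tumors were grown by orthotopic transplantation of FF99WT cells into FVB/NJ mice. FF99WT is a cell line from a tumor of an MMTV-PyMT mouse, in which the mammary tumor virus promoter drives the polyoma middle T oncogene in mammary epithelium, and it carries floxed FIP200 alleles without Cre recombinase. The tumors were untreated, each replicate was a separate tumor in a separate sequencing batch, and both descend from 1 line, so the spread between them does not describe PyMT tumors in general. Tumor cells were dissociated with collagenase and trypsin and sorted as CD24+ and negative for Ter119, CD31 and CD45, and single-cell libraries were made with 10x Chromium 3' chemistry. The same rule was also applied to the other libraries of the series, which are 1 tumor of 4T1 cells transplanted into a BALB/C mouse, 2 BRCA1-null tumors, which arose in mice with floxed Brca1 and Trp53 and a K14-Cre transgene, and 2 Neu tumors, which arose in MMTV-Neu mice crossed with mice of floxed FIP200. All mice were adult, and those other than the 4T1 host were FVB/NJ. The 4T1 line carries a lentiviral GFP.

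Csf3 encodes granulocyte colony-stimulating factor (G-CSF), the cytokine that drives neutrophil production in bone marrow and releases neutrophils into blood. Cxcl1 and Cxcl2 encode chemokines of the ELR class, which draw neutrophils through the receptor CXCR2. The genes of all 3 proteins are induced by NF-kB and C/EBP transcription factors after stimulation by cytokines or bacterial products, and their messages carry AU-rich elements that shorten their life. In mammary tumors G-CSF is known for expanding neutrophils in the host.

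In GRCm38, Csf3 (ENSMUSG00000038067) lies on the forward strand of chromosome 11 from 98701263 to 98703629. Cxcl1 (ENSMUSG00000029380) lies on chromosome 5 from 90891241 to 90893115 and Cxcl2 (ENSMUSG00000058427) beside it from 90903871 to 90905938, both on the forward strand. The promoters of these chemokines are shown because both genes were higher in Csf3-high cells and both windows hold NF-kB motifs. Each window is 300 bases of RefSeq on GRCm38.p6, written 5′ to 3′ and read on the forward strand, at chr5:90890995-90891294 for Cxcl1 and chr5:90903649-90903948 for Cxcl2. Capitals mark matches, on either strand, to an NF-kB motif spelled GGG, any 2 bases and TTTCC.
Cxcl1: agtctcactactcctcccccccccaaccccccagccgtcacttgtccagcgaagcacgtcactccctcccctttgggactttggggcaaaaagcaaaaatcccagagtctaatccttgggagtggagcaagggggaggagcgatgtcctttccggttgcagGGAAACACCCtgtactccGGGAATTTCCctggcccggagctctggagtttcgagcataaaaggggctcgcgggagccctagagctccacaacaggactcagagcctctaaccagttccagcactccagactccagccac
Cxcl2: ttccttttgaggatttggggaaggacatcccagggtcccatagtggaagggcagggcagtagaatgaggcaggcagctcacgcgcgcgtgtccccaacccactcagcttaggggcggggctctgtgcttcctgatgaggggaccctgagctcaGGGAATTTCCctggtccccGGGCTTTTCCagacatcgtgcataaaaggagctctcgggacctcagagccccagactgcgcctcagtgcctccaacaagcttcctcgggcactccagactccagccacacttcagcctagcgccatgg
Counted from 1 at the 5′ end, the matches begin at bases 162 (on the reverse strand) and 180 of the Cxcl1 window and at bases 154 and 173 of the Cxcl2 window. The windows are set on RefSeq start sites, which differ from the gene starts given above. Over all 32851 promoter windows of the same length, 1.63% held the motif on either strand. Of the 10 genes with the largest rises described below, 8 had a window and 1 of them, Cxcl1, held it. A match is a run of letters in a window, and binding was not measured. The window table held no entry for Csf3 or Cxcl5.

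Csf3 transcripts were unevenly spread over PyMT cells and the libraries differed several fold in level. Over all cells Csf3 reached 2129 CPM (UMIs of the gene scaled to a common total of UMIs) in replicate A and 384.2 in replicate B. A Csf3 UMI was found in 76.0% of cells in replicate A (95% exact binomial interval 74.1 to 77.9) and in 44.8% of cells in replicate B (42.5 to 47.1), at median depths of 9241 and 19410 UMIs per cell, so the deeper library had the smaller share. The same share was 87.6% in 4T1, 31.8% and 7.17% in BRCA1-null replicates A and B, and 13.6% and 3.66% in Neu replicates A and B. No cell type that should lack Csf3 was present in number in the sorted cells, so the share given by free RNA was not measured.

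In replicate A, Csf3-high cells held 15 to 217 Csf3 UMIs with a median of 81, and their level ran from 62.7 to 340.5 per 10000 UMIs with a median of 87.0. In replicate B they held 3 to 310 UMIs with a median of 46, and their level ran from 13.1 to 223.2 with a median of 24.98. The limit thus lay at a different level in each tumor, and the cells on either side of it were alike in Csf3. The lowest member and the highest other cell were at 62.72 and 62.58 in replicate A and at 13.09 and 13.07 in replicate B. By level alone, 796 cells of replicate A (40.9%) were at or above the limit of replicate B, whereas 15 cells of replicate B (0.814%) were at or above that of replicate A. The members held 43.9% of all Csf3 UMIs in replicate A and 71.4% in replicate B.

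**Figure D1:**
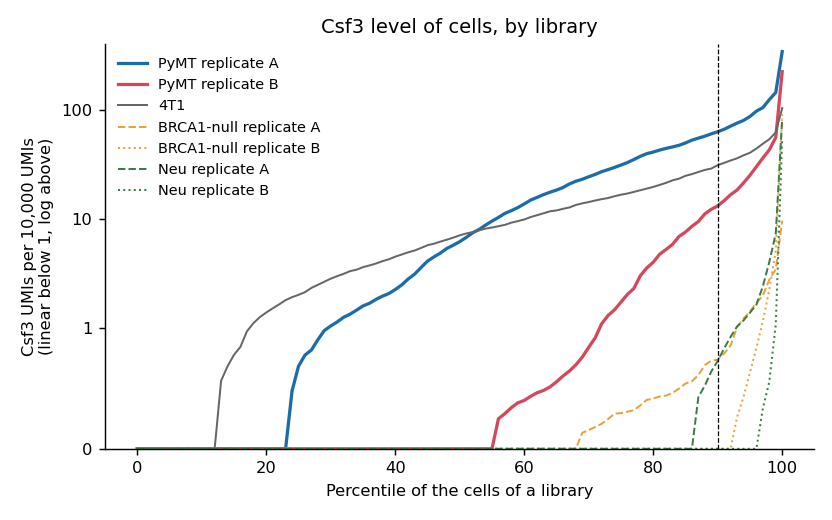
Csf3 UMIs per 10000 UMIs (linear below 1, logarithmic above) by percentile of the cells of each of the 7 libraries, with the dashed line at the limit of the top 10%. At that line PyMT replicate A is at about 62.7 and replicate B at about 13.1, and both lines leave 0 at the share of cells without a Csf3 UMI.

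Csf3 was also read from other molecules of the same cells. With the members chosen on a random part of each cell's UMIs, the rest of their UMIs gave 9243 Csf3 CPM in replicate A and 3046 in replicate B. Cells that had no Csf3 UMI in the part used for the choice gave 84.1 and 28.0 CPM in the rest. Chosen on all UMIs, members held medians of 81 and 46 Csf3 UMIs in replicates A and B. A high level in the rest thus followed from the choice, and it is a description and no test. Some cells without a Csf3 UMI in the part used for the choice had such a UMI in the rest.

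Each Csf3-high cell was matched within its library to a cell without a Csf3 UMI and to a middle cell (a Csf3 UMI, not among the top 10%) of nearly the same depth, and UMIs were summed over each set, which gave 6 sums. All 380 members found a match. Median depths were 8879 UMIs in Csf3-high cells and 8766 in cells without a UMI of replicate A, and 17050 and 17032 in replicate B. The mitochondrial share had medians of 4.81% and 5.04% in replicate A and 4.38% and 4.79% in replicate B. The share of ribosomal protein transcripts was lower in Csf3-high cells, at medians of 20.95% against 25.98% in replicate A and 22.2% against 24.7% in replicate B, and its part in the results was not tested.

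Csf3-high cells carried the labelled epithelial identity. Epcam, an adhesion molecule of epithelial cells, was at 3924 CPM in Csf3-high cells and 3111 in cells without a UMI of replicate A, and at 3581 and 2880 in replicate B. These and all further CPM of the sums are scaled by TMM, with Csf3 left out of the totals. The leukocyte marker Ptprc, which encodes CD45, had no UMI in any of the sets. The 14 leukocyte markers together gave 25 UMIs in Csf3-high cells and 22 in cells without a UMI of replicate A, and 50 and 48 in replicate B, with 6 of the 14 at 0 in Csf3-high cells. The 8 neutrophil markers together gave 50.7 and 53.6 plain CPM in replicate A and 50.7 and 51.9 in replicate B, with 4 of 8 at 0. The 6 endothelial markers summed to 0.895 to 1.69 plain CPM and the 5 erythroid markers to 0 to 0.895 in Csf3-high cells. Scrublet marked no Csf3-high cell as a doublet, and 1 of the 380 carried 2 or more leukocyte markers.

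Summed over cells, Csf3-high cells had higher levels of several chemokine, cytokine, NF-kB pathway and acute phase genes. Of 18 hypoxia and glycolysis genes tested 8 were lower and 3 higher, and of 10 heat shock genes 2 were lower and none higher. Immediate early genes went both ways, with 8 higher and 6 lower of 25 tested. Of 8817 genes tested in edgeR's quasi-likelihood test with the library as a block, 603 differed (6.84%), of which 432 were higher (4.9%) and 171 lower (1.94%) than in matched cells without a Csf3 UMI at an adjusted p under 0.05. The direction was the same in both libraries for 429 of the higher and 170 of the lower genes. At least a 2-fold change was found for 116 higher and 65 lower genes, and the median log2 fold change over all genes was -0.0050. Middle cells against cells without a UMI gave 101 higher (1.15%) and 13 lower genes (0.147%), and Csf3-high against middle cells gave 85 (0.964%) and 39 (0.442%), with all of these contrasts sharing sums. The fitted level of the middle cells lay between the other sets for 416 of the higher and 151 of the lower genes. The test rests on 2 tumors of 1 line with 2 residual degrees of freedom, to which 13.65 prior degrees borrowed across genes were added. Without the library block no gene passed in either direction.

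**Figure D2:**
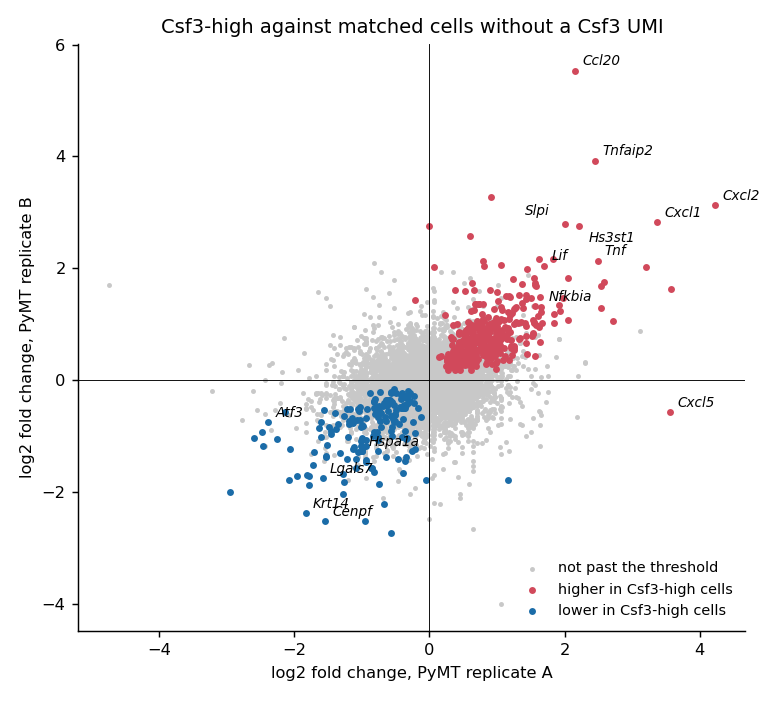
Log2 fold change of each of 8817 genes between Csf3-high cells and matched cells without a Csf3 UMI in PyMT replicate A (horizontal) and replicate B (vertical), with genes past an adjusted p of 0.05 in color. Of the 432 higher genes 429 are above 0 in both libraries, and Cxcl5 is high in replicate A only.

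Cxcl1 had the smallest adjusted p of all genes tested. In replicate A Cxcl1 was at 1739 CPM in Csf3-high cells, 746.2 in middle cells and 167.3 in cells without a UMI, and in replicate B at 580.1, 189.9 and 80.9. The order of the sets was the same in both tumors, and the lowest Csf3-high sum was above the highest sum without a Csf3 UMI. The log2 fold change was 3.11 ± 0.14 (SE), or 8.66-fold, with an adjusted p of 3.27e-09. Cxcl1 also differed between middle cells and cells without a UMI (log2 fold change 1.72, adjusted p = 8.71e-06) and between Csf3-high and middle cells (1.39, adjusted p = 3.95e-05). After thinning each cell to 3000 UMIs, which left out 4 cells per set in replicate A and 1 in replicate B, a Cxcl1 UMI was found in 59.7% of Csf3-high cells of replicate A and 20.9% of cells without a Csf3 UMI, and in 49.5% and 13.6% in replicate B. Without thinning these shares were 81.5% and 38.5% in replicate A and 74.1% and 33.0% in replicate B. A cell without a Cxcl1 UMI may still express the gene, as the shares rise with depth.

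Cxcl2 had a larger fold change that rested on few cells. In replicate A it was at 339.7 CPM in Csf3-high cells, 115.0 in middle cells and 17.0 in cells without a UMI, and in replicate B at 45.7, 6.29 and 4.65. The log2 fold change was 4.04 ± 0.26 (SE, adjusted p = 8.91e-08). A Cxcl2 UMI was present in 20 of 195 Csf3-high cells in replicate A and 6 of 185 in replicate B, against 8 and 4 cells without a Csf3 UMI. The cell with the most Cxcl2 UMIs held 21.2% of the Cxcl2 UMIs of Csf3-high cells in replicate A and 67.3% in replicate B, and with the top cell of each sum left out the Cxcl2 log2 fold change was 5.25. After thinning, 37.7% of Csf3-high cells in replicate A and 50.5% in replicate B showed neither Cxcl1 nor Cxcl2, compared with 78.5% and 85.9% of cells without a Csf3 UMI, and without thinning 17.4% and 25.9% compared with 61.0% and 65.4%.

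Of the 6 ELR chemokines 3 were tested and all 3 passed as higher, with a median log2 fold change of 4.04. Cxcl5 was the third (4.14 ± 1.09, adjusted p = 0.029), but its 21 UMIs came from 4 cells of replicate A, 18 of them from 1 cell, and Csf3-high cells of replicate B had none. No UMI of Cxcl3 or Ppbp was found in any set. The receptors through which G-CSF and the ELR chemokines act were nearly absent, with no UMI of Csf3r or Cxcr1 in any set and 1 UMI of Cxcr2, in Csf3-high cells of replicate A.

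Of 15 other chemokines 7 were tested, 4 were higher and none lower. Cx3cl1, the membrane-bound chemokine fractalkine, was at 66.7 CPM against 25.2 in replicate A and 54.4 against 25.9 in replicate B (log2 fold change 1.20 ± 0.15, adjusted p = 7.05e-05). Cxcl16 was at 69.0 against 22.5 CPM in replicate A and 10.9 against 7.85 in replicate B (1.21, adjusted p = 0.0065). Ccl2, which draws monocytes, was found in 12 and 16 Csf3-high cells (log2 fold change 2.05, adjusted p = 0.0090). Ccl20, a ligand of CCR6, passed at 4.44 (adjusted p = 0.0021), but 207 of its 219 UMIs in Csf3-high cells of replicate B lay in 1 cell. With the top cell of each sum left out Ccl20 stood at 3.60 (adjusted p = 0.0025). In contrast, a Cx3cl1 UMI was found in 76 of 195 Csf3-high cells in replicate A and 91 of 185 in replicate B.

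Among the colony-stimulating factors and interleukins 3 of 4 genes tested were higher, with a median log2 fold change of 1.51. Lif encodes leukemia inhibitory factor, which activates STAT3 at the start of mammary involution. It was at 160.0, 123.0 and 48.3 CPM in Csf3-high cells, middle cells and cells without a UMI of replicate A, and at 169.0, 74.3 and 40.1 in replicate B. Lif rose by 1.93 ± 0.16 (SE) on the log2 scale (adjusted p = 7.99e-07), with the same order of sets in both tumors. Tnf, the cytokine TNF and itself an inducer of NF-kB, was at 70.1, 32.9 and 11.5 CPM in replicate A and 51.0, 24.3 and 11.1 in replicate B. It rose by 2.36 ± 0.18 (adjusted p = 5.34e-07), and a Tnf UMI was found after thinning in 16.8% and 15.8% of Csf3-high cells of replicates A and B against 2.62% and 2.72% of cells without a Csf3 UMI. Csf1, which supports macrophages, rose by 0.64 (adjusted p = 0.012). It rose by 0.64 in middle cells too, with a log2 difference of 0.00034 between Csf3-high and middle cells. Other members of the list were scarce, as Csf2 had no UMI and Il6, Il1a and Il1b had 2, 4 and 1 UMIs over all Csf3-high cells, too few for a test.

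**Figure D3:**
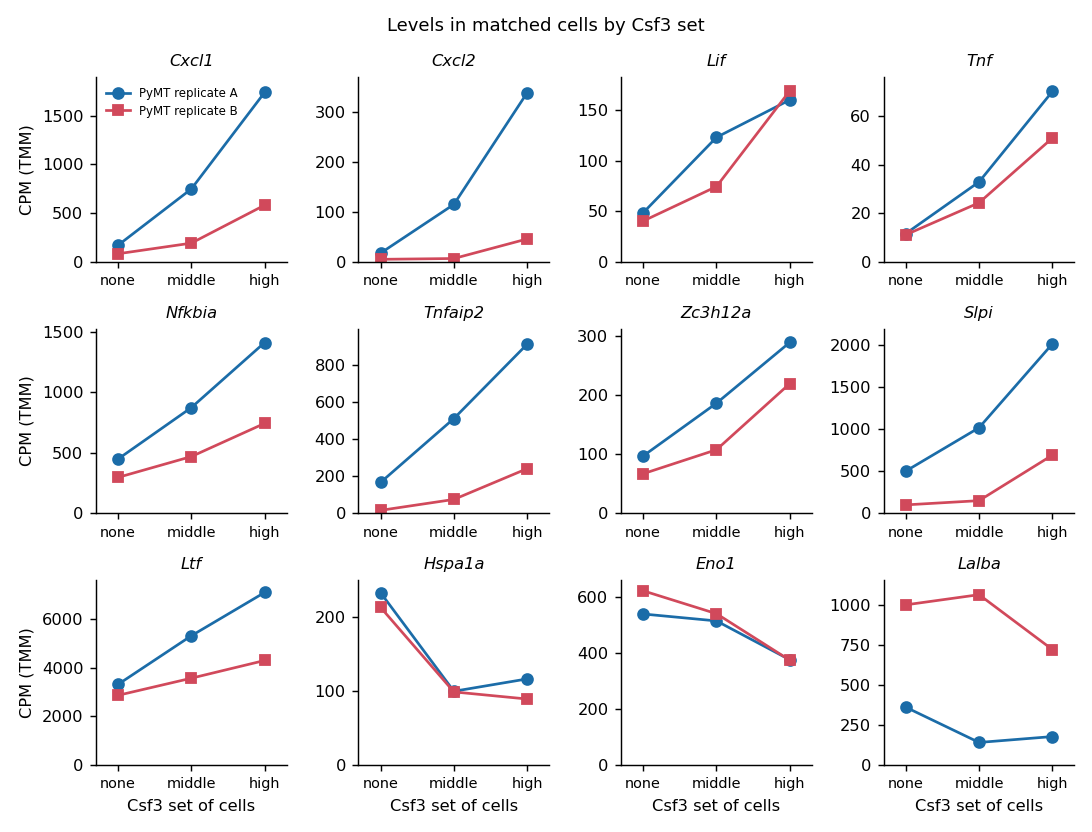
TMM-scaled CPM of 12 genes in matched cells without a Csf3 UMI (none), middle cells and Csf3-high cells (high) of PyMT replicates A (circles) and B (squares), with each vertical axis starting at 0. Cxcl1 goes from 167.3 over 746.2 to 1739 in replicate A, and Hspa1a falls from 233.7 to 116.5, with middle cells at 99.7.

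NF-kB pathway genes were higher as a list. Of 17 genes tested 12 were higher and none lower, with a median log2 fold change of 1.03. The changes covered subunits (Nfkb1, Nfkb2, Rela, Relb), regulators that NF-kB itself induces (Nfkbia, Nfkbiz, Tnfaip3, Bcl3) and target genes. Nfkbia, which encodes the inhibitor IkB alpha, was at 1410, 872.0 and 446.6 CPM in Csf3-high cells, middle cells and cells without a UMI of replicate A, and at 742.0, 467.5 and 295.2 in replicate B. Its log2 fold change was 1.49 ± 0.087 (adjusted p = 4.01e-08). Tnfaip2, a TNF-induced gene, was at 910.2 against 165.1 CPM in replicate A and 239.9 against 15.1 in replicate B (7.98-fold, adjusted p = 1.75e-07). Nfkb1, the p105 and p50 subunit, was at 173.3 against 76.3 and 104.1 against 53.8 CPM (1.06, adjusted p = 9.14e-06). Genes that did not pass included Icam1 (1.37, adjusted p = 0.078) and Nfkbie (1.59, adjusted p = 0.083).

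**Figure D4:**
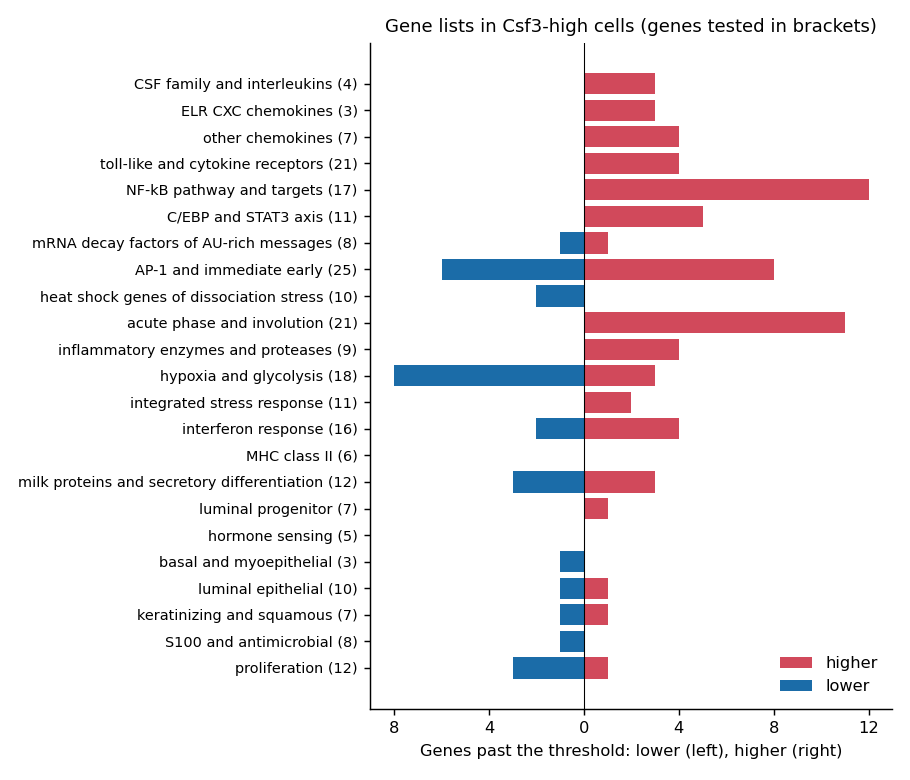
Number of genes of each list that were higher (to the right) or lower (to the left) in Csf3-high cells at an adjusted p under 0.05, with the number of genes tested in brackets, for lists with at least 3 genes tested. The NF-kB list has 12 of 17 to the right, and the hypoxia and glycolysis list 8 of 18 to the left.

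A minority of the receptors that feed this pathway passed the test, beside 4.9% of all genes tested that were higher. Of 21 toll-like and cytokine receptors and adaptors tested 4 were higher (Cd14, Tlr2, Lbp, Tnfrsf12a) and none lower, with a median of 0.39. Tlr2, a receptor of bacterial lipoproteins, was at 66.7 against 21.9 CPM in replicate A and 89.2 against 42.5 in replicate B (1.23 ± 0.15, adjusted p = 6.79e-05). Cd14, a co-receptor of lipopolysaccharide that the study used as a progenitor marker, was at 573.4 against 291.9 and 455.9 against 335.7 CPM (0.69 ± 0.10, adjusted p = 0.00033). Tlr4 had a log2 fold change of 0.54 (adjusted p = 0.49), with 9 and 20 UMIs in the Csf3-high sums.

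In the C/EBP and STAT3 axis 5 of 11 genes tested were higher and none lower, with a median of 0.65. Cebpb, an activator of many acute phase genes, was at 1285 against 781.8 CPM in replicate A and 660.3 against 336.5 in replicate B. Cebpd, which STAT3 induces in involution, was at 995.4 against 542.6 and 692.9 against 396.8 CPM (0.84 ± 0.077, adjusted p = 2.77e-06). Against middle cells Cebpd stood at 0.24 (adjusted p = 0.18). Pim1, a kinase gene downstream of STAT3, rose by 1.35 (adjusted p = 2.61e-06) and Junb by 0.92 (adjusted p = 1.23e-06). Stat3 itself was at 0.10 (adjusted p = 0.72).

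Of 8 genes tested for decay factors of AU-rich messages 1 was higher and 1 lower. Zc3h12a encodes Regnase-1, an RNase that degrades cytokine messages, and was at 288.7, 185.8 and 96.6 CPM in replicate A and 219.1, 107.2 and 66.6 in replicate B (1.65 ± 0.11, adjusted p = 1.01e-07). Zfp36l1 fell by 0.48 (adjusted p = 0.0082), while Zfp36, which encodes tristetraprolin, was at 0.16 (adjusted p = 0.49). Zc3h12a followed the same steps from cells without a UMI over middle cells to Csf3-high cells as Nfkbia.

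In the acute phase and involution list 11 of 21 genes tested were higher and none lower, with a median of 0.72. Slpi, a secreted inhibitor of neutrophil elastase, was at 2018, 1018 and 500.3 CPM in replicate A and 691.7, 149.2 and 98.6 in replicate B (2.42 ± 0.18, adjusted p = 5.16e-07). Lcn2, the iron-chelating lipocalin, was at 18708 against 11126 CPM in replicate A and 18270 against 11604 in replicate B (0.70 ± 0.059, adjusted p = 1.33e-06). Ltf, which encodes lactoferrin, was at 7108 against 3310 and 4300 against 2861 CPM (0.84, adjusted p = 1.71e-05). Spp1, Mfge8 and Anxa1, which the study names for PyMT cells, rose by 0.80, 0.76 and 0.64 (adjusted p of 1.04e-05, 8.34e-05 and 7.05e-05). Ceruloplasmin (Cp) rose by 0.85 (adjusted p = 8.27e-06).

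Among inflammatory enzymes and proteases 4 of 9 genes tested were higher and none lower. Ptgs2, the inducible cyclooxygenase, was at 76.5 against 31.8 CPM in replicate A and 75.2 against 20.9 in replicate B (1.59, adjusted p = 5.91e-06). Plaur, the urokinase receptor, was at 586.7 against 186.0 and 676.1 against 289.7 CPM (1.42, adjusted p = 1.75e-07). Sphk1, which makes sphingosine 1-phosphate, rose by 1.31 (adjusted p = 1.14e-05). Of the 10 largest rises, 3 fell in none of the groups above. These were Hs3st1, a heparan sulfate sulfotransferase, at 324.1 against 68.6 CPM in replicate A and 157.5 against 22.7 in replicate B (2.49 ± 0.12, adjusted p = 6.59e-09), the transcription factor Ets1 at 1.58 (adjusted p = 6.21e-06) and 1500015O10Rik at 1.69 (adjusted p = 6.44e-06).

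The AP-1 and immediate early list moved in both directions, with 8 genes higher and 6 lower of 25 tested and a median of -0.091. Ier3, an early gene of the NF-kB response, was at 2593 against 1138 CPM in replicate A and 3191 against 1487 in replicate B (1.14 ± 0.068, adjusted p = 4.01e-08). Maff, Dusp5 and Fosl1 rose by 1.07, 0.97 and 0.75. In contrast Atf3, a stress-induced repressor, was at 34.8 against 185.4 CPM in replicate A and 90.7 against 152.1 in replicate B (-1.33 ± 0.22, adjusted p = 0.00087). Jun fell by 0.48, Egr1 by 0.80, Fosb by 0.66 and Klf4 by 0.81 on the log2 scale, and Fos was at -0.35 (adjusted p = 0.052). These early genes also respond to tissue dissociation, and of 10 heat shock genes tested 2 were lower and none higher. Hspa1a, the inducible HSP70, was at 116.5 against 233.7 CPM in replicate A and 89.2 against 213.8 in replicate B (-1.14 ± 0.10, adjusted p = 2.25e-06). Middle cells were also low in Hspa1a, at 99.7 CPM in replicate A and 98.8 in replicate B. An Hspa1a UMI was found in 34.9% of Csf3-high cells and 29.7% of cells without a Csf3 UMI in replicate A. In replicate B these shares were 45.4% and 47.0%. After thinning they were 16.8% and 20.4% in replicate A and 10.3% and 17.9% in replicate B. Hspb1 fell by 0.45 (adjusted p = 0.0013) and by 0.47 in middle cells. In replicate A 51.8% of Csf3-high cells and of cells without a Csf3 UMI held an Hspb1 UMI. In replicate B these shares were 96.8% and 97.3%. The part of dissociation in these differences was not tested.

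In the hypoxia and glycolysis list 8 of 18 genes tested were lower and 3 higher, with a median of -0.35. Eno1, the enolase of glycolysis, was at 375.7 against 539.8 CPM in replicate A and 374.1 against 623.1 in replicate B (-0.64 ± 0.081, adjusted p = 7.64e-05). Pgk1, Tpi1 and Gapdh fell by 0.55, 0.43 and 0.50, and Bnip3, a hypoxia-induced mitophagy receptor, by 1.41. The 3 higher genes were the glucose transporter gene Slc2a1 at 0.74 (adjusted p = 4.52e-05), Vegfa at 1.03 (adjusted p = 0.0044) and Ndrg1 at 0.32 (adjusted p = 0.015), so the list did not move as a whole. In the integrated stress response list Atf4 (0.41) and the chaperone gene Hspa5 (0.42) were higher among 11 tested.

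Milk genes were split. Of 12 tested 3 were higher (Csn3, Muc1, Trf) and 3 lower (Wap, Lalba, Plin2), with a median of -0.19. Lalba, a subunit of lactose synthase, was at 176.2 against 360.4 CPM in replicate A and 721.2 against 1002 in replicate B (-0.74 ± 0.20, adjusted p = 0.032). The share of cells with a Lalba UMI was nearly equal, at 38.5% against 37.4% in replicate A and 73.0% against 72.4% in replicate B. The top 10% by milk genes took in 13.3% of Csf3-high cells against 7.18% in replicate A and 9.19% of each set in replicate B. Wap, whey acidic protein, was at 30.7 against 87.8 and 218.1 against 386.6 CPM (-1.04, adjusted p = 0.0077). Csn3, kappa casein, rose by 0.39 (adjusted p = 0.0011), and Csn1s1 was at -0.17 (adjusted p = 0.70) with opposite signs in the libraries.

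A minority of the lineage markers passed the test, beside 6.84% of all genes tested that differed in either direction. Of 7 luminal progenitor genes tested 1, Cd14, was higher. Aldh1a3, an aldehyde dehydrogenase of progenitors, was at 94.5 against 187.6 CPM in replicate A and 83.9 against 88.1 in replicate B (-0.51, adjusted p = 0.067, and -0.58 with an adjusted p of 0.0315 when the top cell of each sum is left out). None of 5 hormone-sensing genes and none of 6 MHC class II genes tested passed. Among 10 luminal epithelial genes tested Epcam was higher (0.32, adjusted p = 0.0048) and the claudin gene Cldn3 lower (-0.47, adjusted p = 0.0014), while Krt8 and Krt18 stood at 0.14 and 0.11 (adjusted p of 0.23 and 0.46). Krt14, a basal keratin, was low throughout, at 2.90 against 13.2 CPM in replicate A and 12.7 against 68.4 in replicate B (-2.35 ± 0.29, adjusted p = 6.35e-05), as was the squamous keratin Krt16 (-2.17, adjusted p = 0.0077), whose value was -1.56 (adjusted p = 0.20) with the top cell of each sum left out. A Krt14 UMI was found in 5 Csf3-high and 10 matched cells of replicate A, and in 27 and 35 of replicate B. After thinning these were 2 and 4 cells in replicate A and 4 and 11 in replicate B. The basal list had 3 genes tested and the keratinizing list 7, of which Lgals3 was the 1 higher gene (0.56, adjusted p = 3.76e-05). Of 8 S100 and antimicrobial genes 1, Wfdc18, was lower (-0.25, adjusted p = 0.016). Lgals7, an epithelial galectin, had the largest fall by the rule for named genes, at 23.8 against 73.0 CPM in replicate A and 22.1 against 75.05 in replicate B (-1.70 ± 0.15, adjusted p = 1.40e-06). The fibroblast marker Postn fell from 12.1 to 3.48 CPM in replicate A and from 7.27 to 2.49 in replicate B (adjusted p = 0.015), and was the 1 fibroblast marker tested, but 18 of 22 and 20 of 25 of its UMIs in cells without a Csf3 UMI lay in 1 cell each.

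Proliferation and interferon genes moved in both directions. Of 12 proliferation genes tested 3 were lower (Cenpf, Ube2c, Birc5) and Pcna was higher (0.62, adjusted p = 0.026). Ube2c was nearly equal in replicate A, at 5.80 against 6.03 CPM, and at 8.70 against 31.4 in replicate B. Cenpf was near the floor, at 0.580 against 3.84 CPM in replicate A and 1.24 against 9.89 in replicate B. Birc5, survivin, was at 18.6 against 33.5 CPM in replicate A and 22.99 against 72.7 in replicate B (-1.41 ± 0.20, adjusted p = 0.00017). Cells with at least 2 of 8 proliferation markers made up 0.513% of Csf3-high cells and 1.54% of matched cells without a UMI in replicate A, and 3.78% and 7.57% in replicate B. In the interferon list 4 of 16 tested were higher and 2 lower. Irf7 was at 194.2 against 93.3 CPM in replicate A and 380.6 against 205.7 in replicate B (0.95, adjusted p = 7.94e-06). Against middle cells Irf7 stood at 0.24 (adjusted p = 0.32). In contrast, Ifit1 was at 5.80 against 10.4 and 15.2 against 56.1 CPM (-1.72, adjusted p = 8.34e-05). In replicate B 1 cell held 96 of the 193 Ifit1 UMIs of cells without a Csf3 UMI, a UMI was found in 28 Csf3-high cells and 26 matched cells, and with the top cell of each sum left out Ifit1 stood at -1.01 (adjusted p = 0.026).

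The high-Csf3 cells overlapped only in part with the high cells of other genes. The top 10% of cells by Cxcl1 took in 27.2% of Csf3-high cells of replicate A (95% exact interval 21.07 to 33.997) and 27.0% of those of replicate B (20.77 to 34.03), against 2.05% and 5.41% of matched cells without a Csf3 UMI. The top 10% by Slpi took in 25.1% and 21.1% of Csf3-high cells, against 6.67% and 7.03% of matched cells without a Csf3 UMI. The top 10% by Ltf took in 13.3% and 12.4%, against 5.64% and 8.11%. The Ltf intervals, 8.90 to 18.92 and 8.05 to 18.07, include the 10% of all cells. Since all of these sets are of equal size, each share of Csf3-high cells is also the share of the other set. The top 10% by Hspa1a took in 5.13% and 7.57% of Csf3-high cells against 13.8% and 11.9% of cells without a UMI. Counting error alone is covered by these intervals. Within the members, split at their median Csf3 level, 6 of the 10 largest rises (Cxcl1, Zc3h12a, Ptgs2, Hs3st1, 1500015O10Rik, Ets1) were higher in the upper part in both libraries, and 3 of the 10 largest falls (Wap, Lgals7, Atf3) were lower. These genes had been chosen by their change in the same members, and the share over all genes was not counted. The split is therefore a description and no test. Cxcl2 was lower in the upper part, by log2 differences of -0.66 in replicate A and -0.81 in replicate B. The upper part was also shallower, with median depths of 8094 against 9364 UMIs in replicate A and 16271 against 17493 in replicate B.

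The same rule was then applied in the 5 other libraries to see whether the genes that accompany Csf3 in PyMT cells did so there. Members numbered 176 in 4T1, of which 149 were matched, 25 and 149 in BRCA1-null replicates A and B, and 231 and 73 in Neu replicates A and B. In BRCA1-null replicate B and Neu replicate B only 7.17% and 3.66% of cells had a Csf3 UMI, so all of those cells were members. Outside 4T1 their limits were 0.180 to 0.739 Csf3 UMIs per 10000, so a member there often rested on few UMIs. The limits were 62.7 and 13.1 in PyMT and 31.0 in 4T1, so the comparison with PyMT sets unlike Csf3 levels side by side. In a joint fit of 14 sums, 32 genes were higher (0.363%) and 3 lower (0.034%) in the 5 other libraries. Of the 32, 23 were among the 432 genes higher in PyMT Csf3-high cells. These made up 71.9% of the smaller list and 5.32% of the larger, and 4.9% of all genes tested were in the PyMT list. Of the 3 lower genes, 0 were among the 171 genes lower in PyMT Csf3-high cells.

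Cxcl1 was higher by 1.92 ± 0.30 (SE) in the other libraries (adjusted p = 0.021), with 3.76 in 4T1, 2.04 and 1.51 in BRCA1-null and 0.76 and 1.58 in Neu. Cxcl2 was higher by 3.06 (adjusted p = 0.00018), Lif by 2.45 (adjusted p = 3.43e-05), Zc3h12a by 1.31 (adjusted p = 0.00031), Tnf by 1.11 (adjusted p = 0.029) and Nfkbia by 0.74 (adjusted p = 0.041). By library, Lif was at -0.37 in BRCA1-null replicate A and Nfkbia at 0.029 in BRCA1-null replicate B. Lif was near the floor in BRCA1-null replicate A, at 5.38 against 7.24 CPM, as was Tnf, at 2.69 against 0. In Neu replicate B Tnf was at 4.44 against 1.89 CPM. Other chemokines did not pass there, with Cxcl16 at 0.88 (adjusted p = 0.064), Cx3cl1 at 0.36 (adjusted p = 0.65), Cxcl5 at 2.35 (adjusted p = 0.11) and Ccl20 at -0.76 (adjusted p = 0.81). The difference between PyMT and the other libraries passed for 9 genes (0.102%). For Cxcl1 it was 1.20 (adjusted p = 0.70), which does not show that the sizes are alike. Hs3st1 was at 2.21 and 2.75 in the PyMT libraries but at -0.49 to 1.31 in the others, with a difference of 2.23 ± 0.36 (adjusted p = 0.021). Krt14 and Lgals7 were lower in PyMT Csf3-high cells than this contrast gave elsewhere, with differences of -2.26 (adjusted p = 0.0017) and -1.77 (adjusted p = 0.0044). Few PyMT cells held a Krt14 UMI, as given above. PyMT differs from Neu and BRCA1-null in origin too, being a transplant of a cultured line, and this cannot be told apart from the oncogene. The strain of the 4T1 host cannot be told apart from its other differences either.

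**Figure D5:**
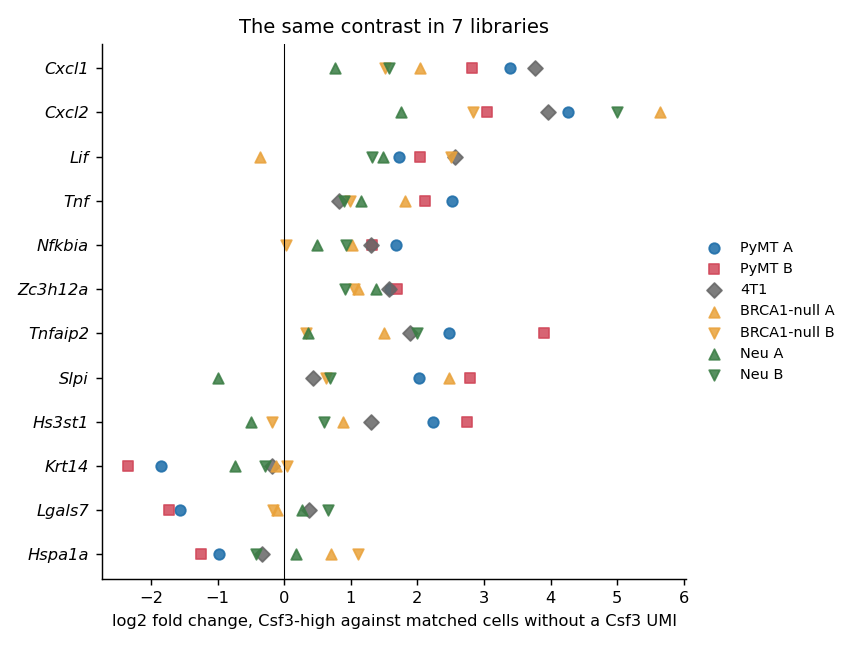
Log2 fold change of 12 genes between Csf3-high cells and matched cells without a Csf3 UMI in each of the 7 libraries, chosen by the same rule. In BRCA1-null replicate B and Neu replicate B the Csf3-high cells are all cells with a Csf3 UMI. Cxcl1, Cxcl2, Tnf and Zc3h12a are above 0 in all 7 libraries, and Krt14 and Lgals7 are below -1 in the PyMT libraries only. Tnf is near the floor in BRCA1-null replicate A (2.69 against 0 CPM) and Neu replicate B (4.44 against 1.89 CPM).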

How the data were processed

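The authors deposited unnormalized UMI counts for every gene and barcode, which Cell Ranger had made against mm10. According to the submitters' processing notes the version was 2.2.0 for replicate A and 3.0.2 for replicate B, while the matrix headers state 3.0.2. For STAR, no version is given in the sources used here. A combined matrix that repeats the libraries was not used, nor were tables of the authors' comparisons. The cells of PyMT replicates A and B held 18119851 and 37693300 UMIs, and 36 barcodes of each library also occur in another library. The members, gene lists and tests were chosen with earlier results of these data known.

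Members and cells without a Csf3 UMI were matched 1 to 1 within a library on log10 UMIs without Csf3 (caliper 0.05), likewise middle cells. UMI counts were summed per library and set and tested with edgeR 4.0.16 in R 4.3.3 (TMM, filterByExpr, quasi-likelihood, Benjamini-Hochberg adjustment over 8817 genes), and the code was tested on simulated data. Csf3 was left out of tests and totals. The sums of a library come from 1 tumor, so the library, which is also the sequencing batch, was a block. Library deviations of the 3 sets were correlated over genes at r of 0.56 to 0.58. With this block, a p measures how far the differences between sets disagree between the 2 tumors. That spread was moderated across genes, with 13.65 prior degrees of freedom beside 2 residual ones. Intervals cover counting error only.

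Genes named are Csf3, Cxcl1, Cxcl2, the 3 genes of smallest adjusted p in each list, the 10 largest rises and 10 largest falls (adjusted p under 0.05, at least 50 CPM in Csf3-high cells or in cells without a UMI in both libraries, same sign), defining markers of other cell types and genes the study names for PyMT cells. Other members of a list are named to show its makeup and were chosen after their values were seen. Of 15 other chemokines 14 were in the matrix. Doublets were kept, and Scrublet (scanpy 1.11.5) marked 4 and 9 cells. Alternatives tried were DESeq2 1.42.0 and its size factors, no filter on low counts, no block, 2 sets only, no depth matching, thinning to 3000 UMIs, the top 5% or 20% of cells, the filters of the study, a mitochondrial limit of 10%, removal of doublets or of cells with leukocyte markers, members chosen on part of the UMIs, and each replicate left out. Leaving out the top cell of each gene and the fit of the 5 other libraries were added after seeing the data.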

Additional observations from a re-analysis of the deposited data

Results flagged for a closer look

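For 5 named genes the contrast between Csf3-high cells and matched cells without a Csf3 UMI differed between the PyMT libraries and the 5 other libraries by the test of that difference in edgeR. On the log2 scale, PyMT minus the others, it was 5.13 for Ccl20, -2.26 for Krt14, 2.23 for Hs3st1, 2.11 for 1500015O10Rik and -1.77 for Lgals7. For Ccl20, 1 cell of replicate B held 94.5% of the UMIs of Csf3-high cells there. Krt14 rested on few PyMT cells, with a UMI in 5 Csf3-high and 10 matched cells of replicate A and in 27 and 35 of replicate B. Of the barcodes that the cell limits left out, those of PyMT replicate A held 138 Csf3 UMIs (536.4 CPM) and those of replicate B held 50 (149.4 CPM), above the 3 counts that a count of 0 allows.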

How the results depend on the processing

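Calls in this design depended on the library block. With no replicate block 0 genes passed in edgeR in either direction (316 higher and 189 lower at an unadjusted p under 0.05), and Cxcl1 stood at 3.23 (adjusted p = 0.590) and Cxcl2 at 4.26 (adjusted p = 0.792). DESeq2's Wald test called 208 higher and 48 lower genes. Higher genes numbered 823 without depth matching, 246 with the top 5% of cells and 266 with members chosen on part of the UMIs. Lower genes numbered 297 with 2 sets only, 416 without depth matching, 86 with the top 5% and 281 with the top 20%. With 1 replicate left out Cxcl1 ranged from 2.82 to 3.36 and Cxcl2 from 3.13 to 4.23, as values with no test; Cxcl2 was 3.13 without replicate A. Leaving out the top cell of each gene gave 444 higher and 176 lower genes.

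Of the 69 named genes past the threshold, 11 lost it with DESeq2, 8 after thinning, 8 with the top 5% and 8 with members chosen on part of the UMIs. Without replicate B Cxcl5 was at 3.56. Signs turned as follows, among genes not past the threshold except Cxcl5. Csn1s1 log2 fold change was 0.013 without the block. Cldn4 log2 fold change was 0.0036 with no filter, 0.030 after thinning, 0.21 with the top 5% and 0.049 with the top 20%. Cxcl5 log2 fold change was -0.36 with DESeq2 and -0.57 without replicate A. H2-DMb1 log2 fold change was -0.091 on part of the UMIs, Elf5 log2 fold change 0.034 with the top 5%, and Sprr1a log2 fold change -0.55 after thinning. S100a8 log2 fold change was -0.13 with the top 5%, -0.0018 with the filters of the study and -0.032 with the mitochondrial limit of 10%. The cause was not tested. Rare genes such as Il6 were below the depth needed for a test.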
